A study of Mus musculus with 23 samples.

Results

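Treatment of wild-type (WT) mice with JIB-04, a small molecule that inhibits Jumonji histone demethylases, was compared with vehicle in hearts taken at day 45. All mice were C57BL/6. The WT JIB-04 group had 3 libraries and the WT vehicle group had 3, of 23 libraries in the series. JIB-04 was dosed at 50 mg/kg on 3 occasions per week, and the study design starts treatment for this age at week 4. Its text names vehicle alone for WT mice, whereas the sample labels place 3 WT libraries under JIB-04 at day 45, and the labels were followed. Which vehicle was used is not given, and the labels do not say that each library came from its own mouse, so the spread between libraries may be partly technical. The WT JIB-04 libraries carry a run of deposit numbers separate from all other samples. A batch of their own therefore cannot be told apart from the drug. The groups set beside them are 3 vehicle and 3 JIB-04 libraries from CnATg mice of the same strain and age, in which a myosin heavy chain promoter drives a calcineurin transgene in heart muscle cells. Genes entered the comparison with an FPKM (fragments per kilobase of transcript, scaled to library size) of at least 1 in at least 3 of the 6 WT libraries. Of 43154 features, 12630 met this rule. Left out were mt-Atp6, mt-Co3 and mt-Atp8, which are encoded by the mitochondrial genome.

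Jumonji enzymes use iron, oxygen and 2-oxoglutarate to remove methyl groups from histone lysines. Members of the KDM3 and KDM4 families act on histone H3 lysine 9, KDM5 enzymes act on lysine 4 and KDM6 enzymes act on lysine 27, so their inhibition can in principle shift genes in either direction. JIB-04 is a pyridine hydrazone that inhibits several of these enzymes. In the adult heart, histone demethylases have been studied mainly for the return of fetal genes under overload, which is the setting that the calcineurin transgene models. The WT hearts address what the drug does without that stimulus.

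The 6 WT libraries had the makeup of heart muscle, and 2 of the 3 JIB-04 libraries stood apart in particular groups of genes. Myh6, the main adult myosin, lay between 2981 and 3424 FPKM, and Ryr2, the calcium release channel, between 74.4 and 99.7 FPKM. JIB-04 replicate 2 held 15.3% of its summed FPKM in short noncoding RNA genes, against 0.531 to 0.855% in the other 5. Its relative depth was 0.691 of the mean of the 6 libraries, against 1.02 to 1.12, and its correlation with the others was 0.972 to 0.980, against 0.982 to 0.992 among those others. Rn7sk, the 7SK RNA that holds back transcription elongation, was at 2942 FPKM in this library and at 18.6 to 108 FPKM in the rest. JIB-04 replicate 3 had Myl7, an atrial myosin light chain, at 20.6 FPKM, against 0.213 to 1.12 FPKM in the other 5. Sln, which encodes the atrial calcium pump inhibitor sarcolipin, was at 8.35 FPKM there and at most at 0.241 FPKM elsewhere. Both groups had 2 libraries with more Xist than Ddx3y and 1 with the reverse, so sex was balanced between the WT groups. It was not balanced between the CnATg groups of day 45. By the same genes, replicates 1, 2 and 3 there were male, female and female with vehicle and male, male and female with JIB-04.

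**Figure D1:**
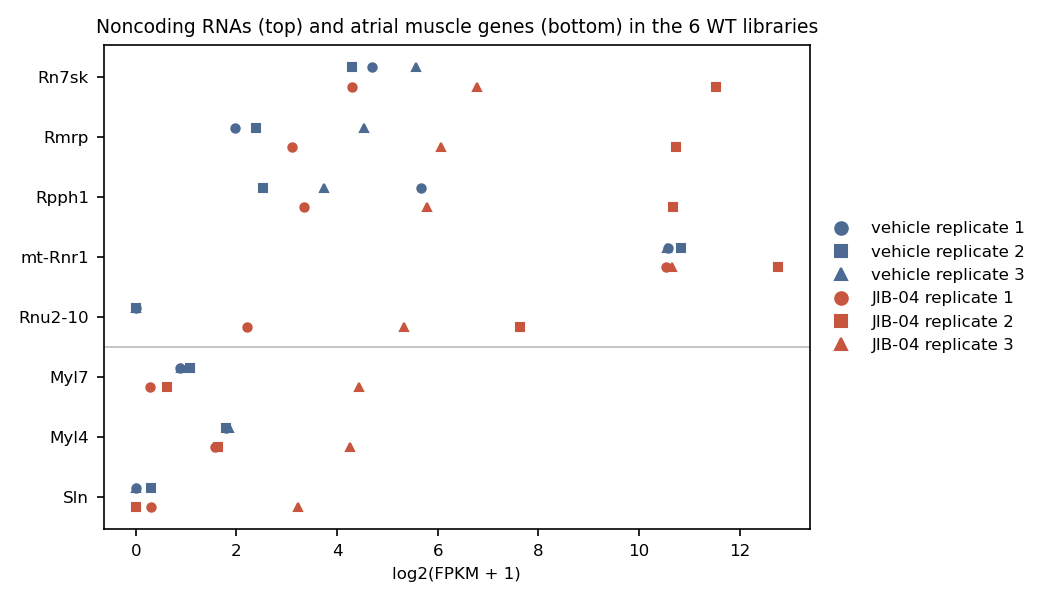
Level of 5 noncoding RNAs and 3 atrial muscle genes, as log2(FPKM + 1), in each of the 3 vehicle (blue) and 3 JIB-04 (red) WT libraries; marker shape gives the replicate number. JIB-04 replicate 2 lies far to the right for the noncoding RNAs (Rn7sk 2942 FPKM) and JIB-04 replicate 3 for the atrial genes (Myl7 20.6 FPKM).

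No gene passed the test between JIB-04 and vehicle in WT hearts. Differences are given as JIB-04 minus vehicle on the log2(FPKM + 1) scale, which understates the change of genes of low level. With limma and Benjamini-Hochberg adjustment over 12630 genes, 0 genes (0%) had an adjusted p under 0.05, and the smallest adjusted p was 0.755. Before adjustment 555 genes (4.39%) had a p under 0.05, of which 273 (2.16%) were higher and 282 (2.23%) lower under JIB-04. The 3 JIB-04 libraries all lay above the 3 vehicle libraries in 438 genes (3.47%) and all below in 502 (3.97%). The median difference over all genes was 0.0032, with 6494 genes higher and 6133 lower. From the 5th to the 95th percentile, differences ran from -0.20 to 0.23. The 95% interval of a gene's difference reached a median of 0.22 to either side, and for 85.0% of genes the whole interval lay within 0.5 of zero. For 97.6% of genes it lay within 1. Under other scalings the share of higher genes among those at an unadjusted p under 0.05 moved from 49.2% to 42.3% (quantile normalization), to 31.0% (short noncoding RNA genes left out) and to 5.78% (mitochondrial and hemoglobin genes left out). In the last of these the median of all genes shifted to -0.11, so small differences below are read against that shift. Each library was there rescaled to its remaining summed FPKM, which still held the nuclear short noncoding RNA genes. Before that step, short noncoding RNA made up 15.3% of JIB-04 replicate 2, against 0.531 to 0.855% of the other WT libraries. How far that library set the shift was not tested. Without mitochondrial and hemoglobin genes every list median given below as positive became negative, except those of fasting, glucocorticoid-responsive and immediate early genes. Mitochondrially encoded transcripts have no value there.

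Differences of at least 1 in size were found in 46 genes, and most of them were not protein-coding genes. By GENCODE type, 12 were processed pseudogenes, 9 were protein coding, 8 were miscellaneous RNA, which includes 7SK and 7SL, and 4 were small nuclear RNA. Rmrp, the RNA of the RNase MRP complex, was at 2.93, 4.23 and 22.1 FPKM with vehicle and at 7.63, 1705 and 65.7 FPKM with JIB-04. Its difference of 3.67 came to 1.62 without JIB-04 replicate 2. Rpph1, the RNA of RNase P, was at 50.0, 4.78 and 12.4 FPKM with vehicle and at 9.21, 1637 and 54.4 FPKM with JIB-04. Its difference of 2.63 came to 0.59 without JIB-04 replicate 2. For both RNAs the groups overlapped.

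**Figure D2:**
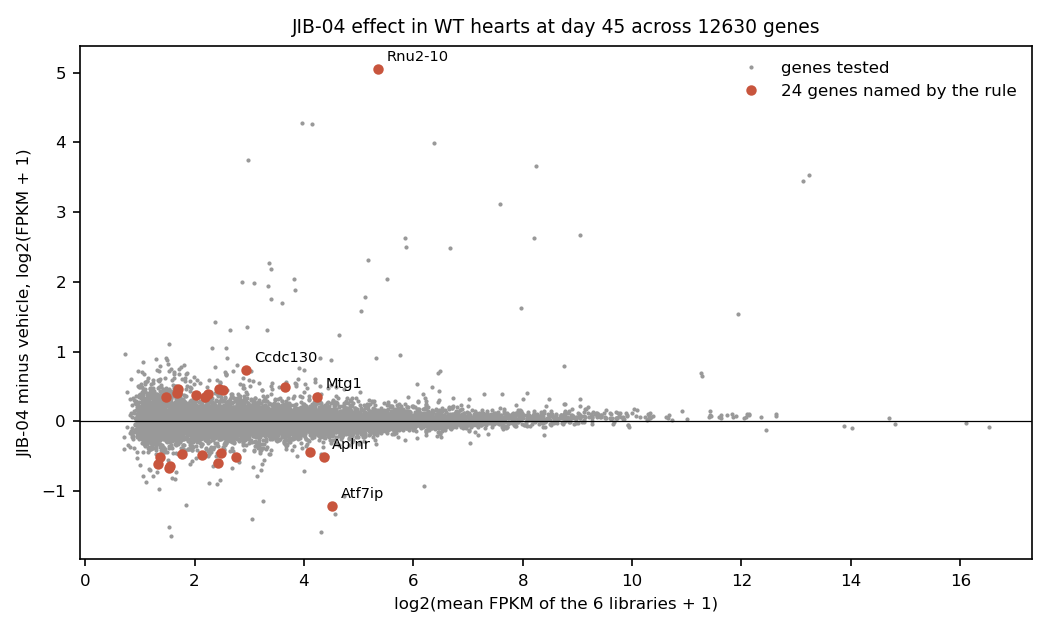
Difference between JIB-04 and vehicle on the log2(FPKM + 1) scale against mean level for each of the 12630 genes tested (grey) and the 24 genes that the naming rule selected (red). Most genes lie within -0.20 to 0.23, and the genes far above zero include Rnu2-10, which is listed at 0 FPKM in all 3 vehicle libraries.

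Genes of the Jumonji family, of which the drug inhibits several enzymes, were expressed in these hearts, and no transcript among them passed the test. Which members the drug acts on here is not known, and transcript level does not measure enzyme inhibition. Of 30 Jumonji-domain genes 26 were tested, 12 of them higher and 14 lower, with a median of -0.014 beside 0.0032 over all genes. Differences ran from -0.19 to 0.35. Kdm4a, a histone H3 lysine 9 and 36 demethylase, was at 11.5, 10.4 and 10.6 FPKM with vehicle and at 10.4, 10.3 and 11.8 FPKM with JIB-04, a difference of 0.0033 (95% interval -0.16 to 0.16). Kdm5a, a lysine 4 demethylase, was at 6.80, 6.89 and 6.78 FPKM with vehicle and at 6.96, 6.75 and 6.09 FPKM with JIB-04, a difference of -0.044 (95% interval -0.18 to 0.092). For both genes the groups overlapped and the interval was narrow around zero.

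The lysine 27 demethylase Kdm6b differed by 0.086 (95% interval -0.097 to 0.27) and the lysine 9 demethylase Kdm3a by -0.11 (95% interval -0.31 to 0.087). Kdm2a, a lysine 36 demethylase, was the single Jumonji gene whose libraries did not overlap between groups, 1 of the 26 tested, beside 3.97% of all genes lower without overlap. It was at 14.5, 18.5 and 14.8 FPKM with vehicle and at 14.5, 14.1 and 12.8 FPKM with JIB-04, a difference of -0.19 (95% interval -0.39 to 0.0070). Here the lowest vehicle library and the highest JIB-04 library were almost level. Jmjd7, a lysyl hydroxylase, had the highest difference of the list, 0.35 (95% interval -0.026 to 0.73). Jarid2, a Jumonji protein of the Polycomb complex that lacks demethylase activity, had a difference of 0.25 that came to 0.022 without JIB-04 replicate 2, where it was at 15.9 FPKM. The Y-linked Kdm5d and Uty are expressed in males alone and, with Kdm4d and Hspbap1, did not meet the level rule.

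Among 29 other chromatin regulators, all tested, 10 were higher and 19 lower, with a median of -0.013. Whsc1l1, the lysine 36 methyltransferase also called Nsd3, was at 6.86, 8.56 and 6.55 FPKM with vehicle and at 6.43, 6.09 and 5.90 FPKM with JIB-04. The groups did not overlap and the difference was -0.21 (95% interval -0.41 to -0.018), with an adjusted p of 0.999 in limma.

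**Figure D3:**
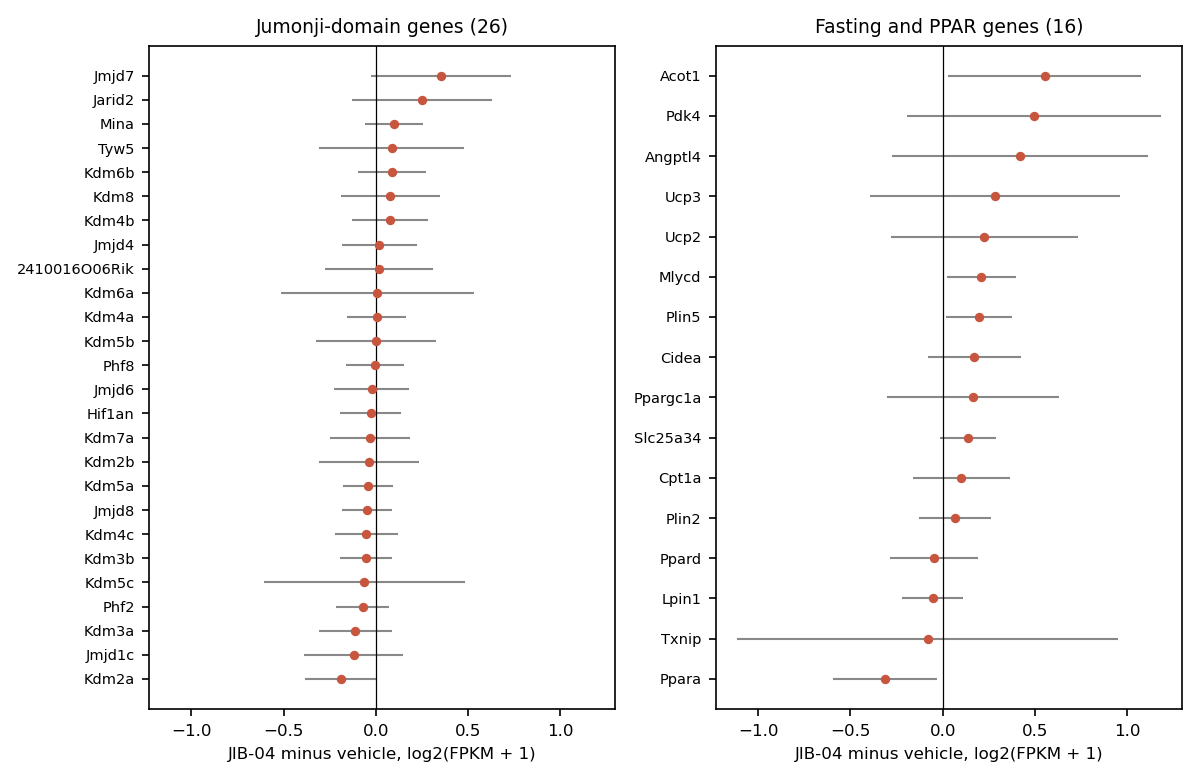
Difference between JIB-04 and vehicle (point) with its 95% interval from limma (line), on the log2(FPKM + 1) scale, for the 26 Jumonji-domain genes tested and 16 of the 17 fasting and PPAR genes tested. Jumonji genes run from -0.19 (Kdm2a) to 0.35 (Jmjd7), and the fasting genes shown from -0.31 (Ppara) to 0.55 (Acot1). The remaining fasting gene is not reported here, so this is not the range of the whole list.

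Genes to name were then taken by size among those whose groups did not overlap, with an unadjusted p under 0.01 and a mean of at least 2 FPKM in the higher group, at most 12 each way. The rule had 26 candidates higher and 43 lower under JIB-04. Their selection used this same contrast, so their values describe the top of the list. Adjusted p values of the 24 named genes ran from 0.851 to 0.999 in limma, and none passed.

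The largest difference upward was that of Rnu2-10, a gene for the U2 small nuclear RNA of the spliceosome (chromosome 11, 101658238 to 101658428, plus strand, GRCm38). It was listed at 0 FPKM in all 3 vehicle libraries and at 3.62, 198 and 39.1 FPKM in the JIB-04 libraries, and no fold is given against values listed at 0. Gm24950 (chromosome 11, 101641748 to 101641938, plus strand) has the same 191 bases in GENCODE M21, with 0 positions that differ, so reads of the 2 genes cannot be told apart. That copy was also at 0 in the vehicle libraries and at 3.62, 58.6 and 25.4 FPKM in the JIB-04 libraries. The sequence shared by both genes is shown because it is the reason that the copies count as 1 observation; the capitals mark the stretch that pairs with the branch point of introns.
Rnu2-10: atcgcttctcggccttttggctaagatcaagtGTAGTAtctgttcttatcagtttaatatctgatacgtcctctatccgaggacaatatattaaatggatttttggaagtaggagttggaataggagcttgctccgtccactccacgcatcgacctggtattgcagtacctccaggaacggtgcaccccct

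U2 RNA has no poly(A) tail, and the libraries were made with an mRNA kit. The order of the JIB-04 libraries in Rnu2-10, with replicate 2 highest and replicate 1 lowest, was also their order in Rn7sk (18.6, 2942 and 108 FPKM for replicates 1, 2 and 3). In the CnATg libraries of the same age Rnu2-10 was at 3.18 to 8.34 FPKM with vehicle and at 20.3 to 40.6 FPKM with JIB-04, a difference of 2.00 (95% interval -0.13 to 4.14). Whether carry-over of RNA without a poly(A) tail has a part in these values was not tested.

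The other named genes higher under JIB-04 had differences from 0.35 to 0.73. Ccdc130, a relative of the splicing factor Yju2, was at 4.11, 5.68 and 4.42 FPKM with vehicle and at 6.96, 11.6 and 7.42 FPKM with JIB-04 (chromosome 8, 84257795 to 84270380). Its difference was 0.73 (95% interval 0.23 to 1.23), and 0.52 without JIB-04 replicate 2, the highest library. Hist1h2bg, a clustered histone H2B gene, averaged 9.42 ± 1.69 FPKM with vehicle and 13.6 ± 1.40 FPKM with JIB-04 (SD, n = 3 each), a difference of 0.50 (95% interval 0.24 to 0.75). Its JIB-04 libraries were at 12.5, 15.2 and 13.2 FPKM, with replicate 2 highest and replicate 1 lowest, as in Rn7sk. CnATg libraries at day 45 lay at 13.5 to 14.6 FPKM with vehicle and at 13.0 to 15.9 FPKM with JIB-04. Whether carry-over has a part here was not tested. The next largest difference came from Lrrk2, a leucine-rich repeat kinase.

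Lrrk2 was at 3.95, 2.83 and 4.02 FPKM with vehicle and at 5.41, 5.27 and 5.25 FPKM with JIB-04, a difference of 0.47 (95% interval 0.22 to 0.71). The JIB-04 libraries were nearly level with each other, and by the naming rule all lay above the vehicle libraries. Cdc25b, a phosphatase that starts mitosis, was at 1.51, 2.10 and 1.59 FPKM with vehicle and at 3.21, 2.66 and 2.46 FPKM with JIB-04, a difference of 0.47. Mtg1, a GTPase of the mitochondrial ribosome, had the narrowest interval of the 12 genes higher. It was at 14.1, 15.8 and 17.1 FPKM with vehicle and at 20.9, 20.5 and 19.3 FPKM with JIB-04 (chromosome 7, 140137564 to 140150786), a difference of 0.35 (95% interval 0.19 to 0.52). The remaining 6 were Nrxn2 (0.45), a synaptic adhesion protein, Gpatch3 (0.40), the protease gene Capn10 (0.40), the decapping factor gene Edc3 (0.38), the secreted factor gene Angptl6 (0.36) and the DNA damage sensor gene Ddb2 (0.35). All 6 were at 1 to 7 FPKM in these libraries.

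Atf7ip had the largest negative difference among the named genes. It encodes a partner of the histone H3 lysine 9 methyltransferase Setdb1 (chromosome 6, 136518802 to 136611038). It was at 39.5, 13.9 and 42.9 FPKM with vehicle and at 10.8, 12.6 and 12.1 FPKM with JIB-04, a difference of -1.22 (95% interval -1.89 to -0.55). The spread lay in the vehicle group, where replicate 2 was close to the JIB-04 libraries. In limma the adjusted p was 0.922. Without vehicle replicate 2 the difference was -1.72 with an adjusted p of 5.5e-06, the single setting tried for the WT effect in which it passed. The CnATg libraries at day 45 lay between 11.3 and 12.9 FPKM in both treatments, so it was vehicle replicates 1 and 3 that differed from the rest.

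Aplnr encodes the receptor for apelin, a peptide of the vessel wall and heart. It was at 24.4, 21.1 and 23.6 FPKM with vehicle and at 14.9, 19.7 and 13.6 FPKM with JIB-04 (chromosome 2, 85136225 to 85139923). The difference was -0.51 (95% interval -0.85 to -0.17) and its adjusted p was 0.999. By the naming rule every JIB-04 library was below every vehicle library. The difference was -0.66 without JIB-04 replicate 2. In CnATg hearts the difference was -0.47 (95% interval -0.82 to -0.13), in libraries that the WT comparison does not share. Markers of endothelium, the cells in which the receptor is best known, had a median of -0.040 with 5 of 14 higher. Their summed level was 936 to 1017 FPKM with vehicle and 989 to 1056 FPKM with JIB-04. This sum includes Fabp4, which is also an adipocyte marker. The adipocyte list, which holds Fabp4, summed to 394 to 438 FPKM with vehicle and to 439 to 495 FPKM with JIB-04.

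Arrdc4, an arrestin-domain gene that responds to glucose, was nearly constant within each group. It averaged 4.13 ± 0.0880 FPKM with vehicle and 2.67 ± 0.265 FPKM with JIB-04 (SD, n = 3 each), a difference of -0.48 (95% interval -0.77 to -0.20). Txnip, its relative in the same glucose response, spread over 81.5 to 207 FPKM with vehicle and 85.2 to 182 FPKM with JIB-04. Ctnnbl1, a spliceosome-associated protein, was at 5.94, 4.55 and 5.91 FPKM with vehicle and at 4.19, 3.14 and 3.79 FPKM with JIB-04, a difference of -0.46 (95% interval -0.69 to -0.22). Slc41a3, a magnesium transporter, was at 17.2, 20.3 and 19.2 FPKM with vehicle and at 11.6, 15.5 and 14.2 FPKM with JIB-04, a difference of -0.43. The unadjusted intervals of these 3 named genes leave out zero by the naming rule, which took an unadjusted p under 0.01.

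Tmem254a, Tmem254b and Tmem254c, with differences of -0.67, -0.51 and -0.64, are neighbouring near-identical copies of a transmembrane protein gene on chromosome 14. Their reads may be shared, so they count as 1 observation. The last 4 were the decoy receptor gene Tnfrsf22 (-0.61), Lypd2 (-0.60), the secreted protein gene C1qtnf5 (-0.51) and the synaptic scaffold gene Dlg4 (-0.47). Each of the 4 was under 9 FPKM in all 6 libraries.

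**Figure D4:**
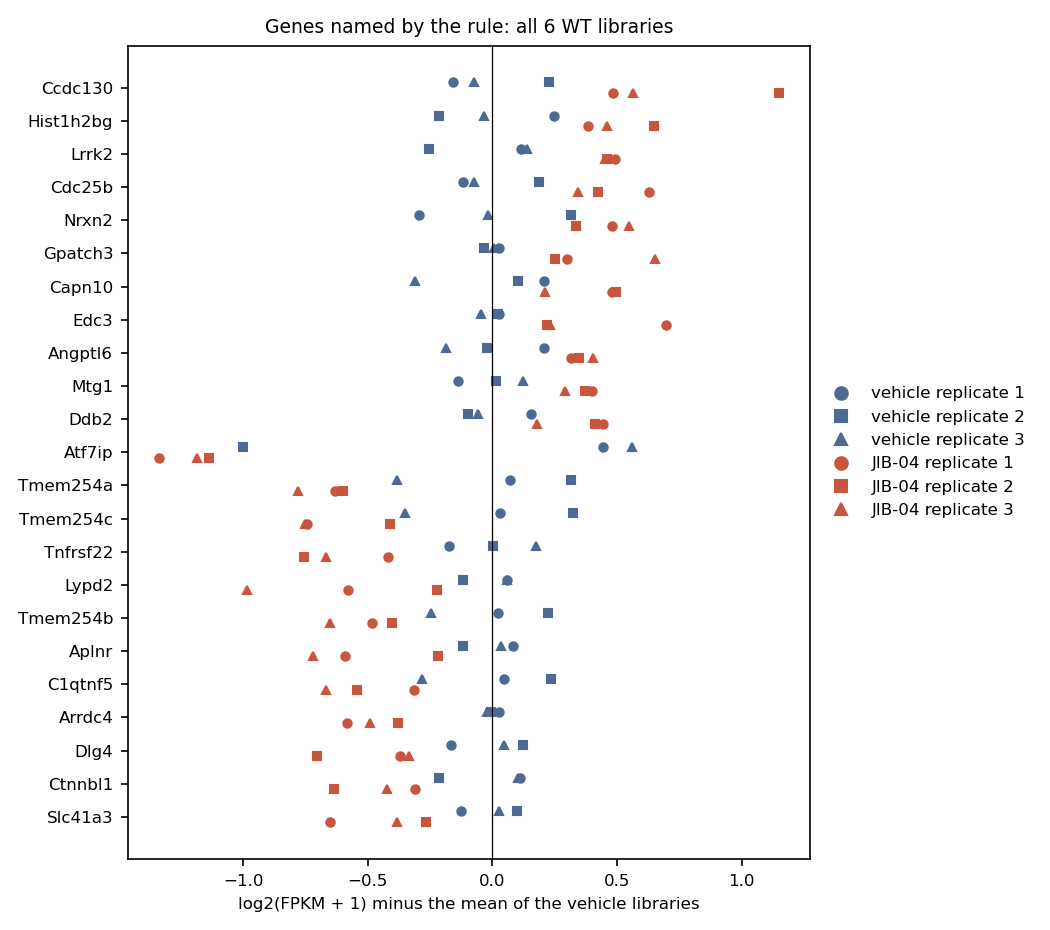
Value of each of the 6 WT libraries as log2(FPKM + 1) minus the vehicle mean, for 23 of the 24 named genes (Rnu2-10 is left out for its scale); blue is vehicle, red is JIB-04. By the naming rule no red point crosses a blue one, and Atf7ip has vehicle replicate 2 near the JIB-04 libraries.

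Genes of heart growth and contraction showed no change that passed the test. Of 13 fetal and hypertrophic genes 11 were tested, and 7 were higher, with a median of 0.059, which came to -0.030 under quantile normalization and -0.066 without mitochondrial and hemoglobin genes. It was 0.0092 without JIB-04 replicate 2. Nppa, the atrial natriuretic peptide, was at 296, 192 and 204 FPKM with vehicle and at 356, 338 and 223 FPKM with JIB-04, a difference of 0.40 (95% interval -0.23 to 1.03). Myh7, the slow myosin of the fetal and failing mouse heart, was at 95.7, 72.5 and 79.1 FPKM with vehicle and at 107, 85.5 and 85.7 FPKM with JIB-04, a difference of 0.17 (95% interval -0.058 to 0.40). The groups overlapped in both genes.

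Nppb, the B-type natriuretic peptide, ranged from 66.4 to 232 FPKM within the vehicle group, and its difference of 0.17 had an interval from -0.62 to 0.96. Rcan1, a direct target of calcineurin, was at 24.3, 25.1 and 26.1 FPKM with vehicle and at 24.8, 24.1 and 25.6 FPKM with JIB-04, a difference of -0.018 (95% interval -0.27 to 0.23). It was among the most level genes of the list. Ankrd1, a stretch-responsive protein of the sarcomere, differed by -0.020 (95% interval -0.43 to 0.39). Of 15 calcineurin and NFAT genes 11 were higher, with a median of 0.014, which came to -0.0078 under quantile normalization and -0.010 without short noncoding RNA genes, and differences of the list ran from -0.091 to 0.079.

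Of 17 contractile genes 12 were higher, with a median of 0.053, which came to 0.0020 without JIB-04 replicate 2 and to -0.095 under quantile normalization and -0.082 without mitochondrial and hemoglobin genes. Myh6 differed by 0.053 (95% interval -0.091 to 0.20). Ttn, the giant spring protein of the sarcomere, was at 47.7, 53.2 and 47.7 FPKM with vehicle and at 51.1, 144 and 50.4 FPKM with JIB-04. Its difference of 0.53 came to 0.036 without JIB-04 replicate 2. Of 22 calcium and ion channel genes tested, 8 were higher and 14 lower, with a median of -0.016. Kcnq1, a potassium channel subunit that repolarizes heart muscle cells, was at 22.5, 20.4 and 20.2 FPKM with vehicle and at 18.9, 16.6 and 18.1 FPKM with JIB-04. The groups did not overlap, and the difference was -0.22 (95% interval -0.37 to -0.071) with an adjusted p of 0.999.

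Genes of fat use leaned to 1 side without passing the test. Of 26 fatty-acid oxidation genes 25 were higher under JIB-04, with a median of 0.12, beside 51.4% higher and a median of 0.0032 over all genes; without mitochondrial and hemoglobin genes the list median was -0.016 against -0.11 for all genes. Of these, 0 passed the test and 3, all higher, had an unadjusted p under 0.05, beside 2.16% of all genes higher at that p. The list mean, set to the vehicle mean, was -0.049, -0.052 and 0.10 in the vehicle libraries and 0.054, 0.15 and 0.21 in the JIB-04 libraries, so the groups overlapped. In CnATg hearts 24 of the same 26 were higher under JIB-04, with a median of 0.098. For this and the CnATg counts below, the share of all genes higher in CnATg hearts is not given. Over all genes the WT effect minus the CnATg effect had a median of 0.036. The 51.4% of the WT effect is therefore not their background.

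Cpt1b, the muscle enzyme that admits fatty acids to mitochondria, was at 233, 223 and 244 FPKM with vehicle and at 250, 259 and 263 FPKM with JIB-04, a difference of 0.14 (95% interval 0.0073 to 0.27). Its groups did not overlap. Fabp3, the fatty-acid binding protein of heart muscle, was at 1835, 1682 and 1961 FPKM with vehicle and at 1941, 2087 and 2013 FPKM with JIB-04, a difference of 0.14 that came to -0.080 under quantile normalization. Acot1, a thioesterase induced by fasting, was at 8.26, 10.1 and 13.3 FPKM with vehicle and at 11.8, 17.9 and 18.2 FPKM with JIB-04, a difference of 0.55 (95% interval 0.031 to 1.08).

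Among 17 fasting and PPAR genes tested, 13 were higher, with a median over all 17 of 0.17 and 0.16 without JIB-04 replicate 2. List means were 0.020, 0.019 and -0.039 with vehicle and 0.085, 0.21 and 0.26 with JIB-04, with replicate 1 the closest to vehicle. Pdk4, which turns mitochondria from glucose to fat, was at 48.4, 63.4 and 80.2 FPKM with vehicle and at 51.6, 103 and 132 FPKM with JIB-04, a difference of 0.50 with an interval from -0.19 to 1.18. Its JIB-04 replicate 1 lay within the vehicle range and the other 2 JIB-04 libraries above it.

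Mlycd, which lowers malonyl-CoA and so relieves Cpt1b, differed by 0.21 (95% interval 0.023 to 0.40), and the lipid droplet gene Plin5 by 0.20 (95% interval 0.019 to 0.38). Angptl4, an inhibitor of lipoprotein lipase, differed by 0.42 (95% interval -0.28 to 1.11). Ppara, the receptor that drives many of these genes, was lower. It was at 16.6, 15.9 and 15.6 FPKM with vehicle and at 15.2, 10.2 and 13.2 FPKM with JIB-04, a difference of -0.31 (95% interval -0.60 to -0.028) that came to -0.16 without JIB-04 replicate 2.

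Of 32 nuclear genes of the respiratory chain and citric acid cycle 31 were higher, by small amounts: the median was 0.062 and the list ran from -0.033 to 0.20. The median was -0.037 under quantile normalization and -0.073 without mitochondrial and hemoglobin genes, against -0.011 and -0.11 for all genes under those scalings. In 11 of the 32 the JIB-04 libraries all lay above the vehicle libraries, which was so in 3.47% of all genes. List means were 0.035, -0.063 and 0.028 with vehicle and 0.077, 0.12 and 0.027 with JIB-04. For the list as a whole JIB-04 replicate 3 therefore lay inside the vehicle range, and the groups overlapped. Ndufb8, a complex I subunit, was at 697, 657 and 708 FPKM with vehicle and at 740, 766 and 731 FPKM with JIB-04, a difference of 0.12 (95% interval 0.022 to 0.21). Cox8b, a complex IV subunit of heart and skeletal muscle, averaged 985 ± 89.7 FPKM with vehicle and 1113 ± 68.6 FPKM with JIB-04 (SD, n = 3 each), a difference of 0.18. Under quantile normalization both came to -0.0036 or -0.0037. In CnATg hearts 14 of the 32 were higher, with a median of -0.0052.

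Mitochondrially encoded transcripts had 8 of 10 higher and a median of 0.067, which came to -0.011 with 1 of 10 higher when JIB-04 replicate 2 was left out and to -0.11 under quantile normalization. Of 19 glycolysis genes 8 were higher, with a median of -0.0033. Hypoxia targets, which respond to oxygen sensors of the same enzyme class as Jumonji proteins, had 11 of 23 higher and a median of -0.0043, and the list ran from -0.20 (Hmox1) to 0.32 (Ankrd37).

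**Figure D5:**
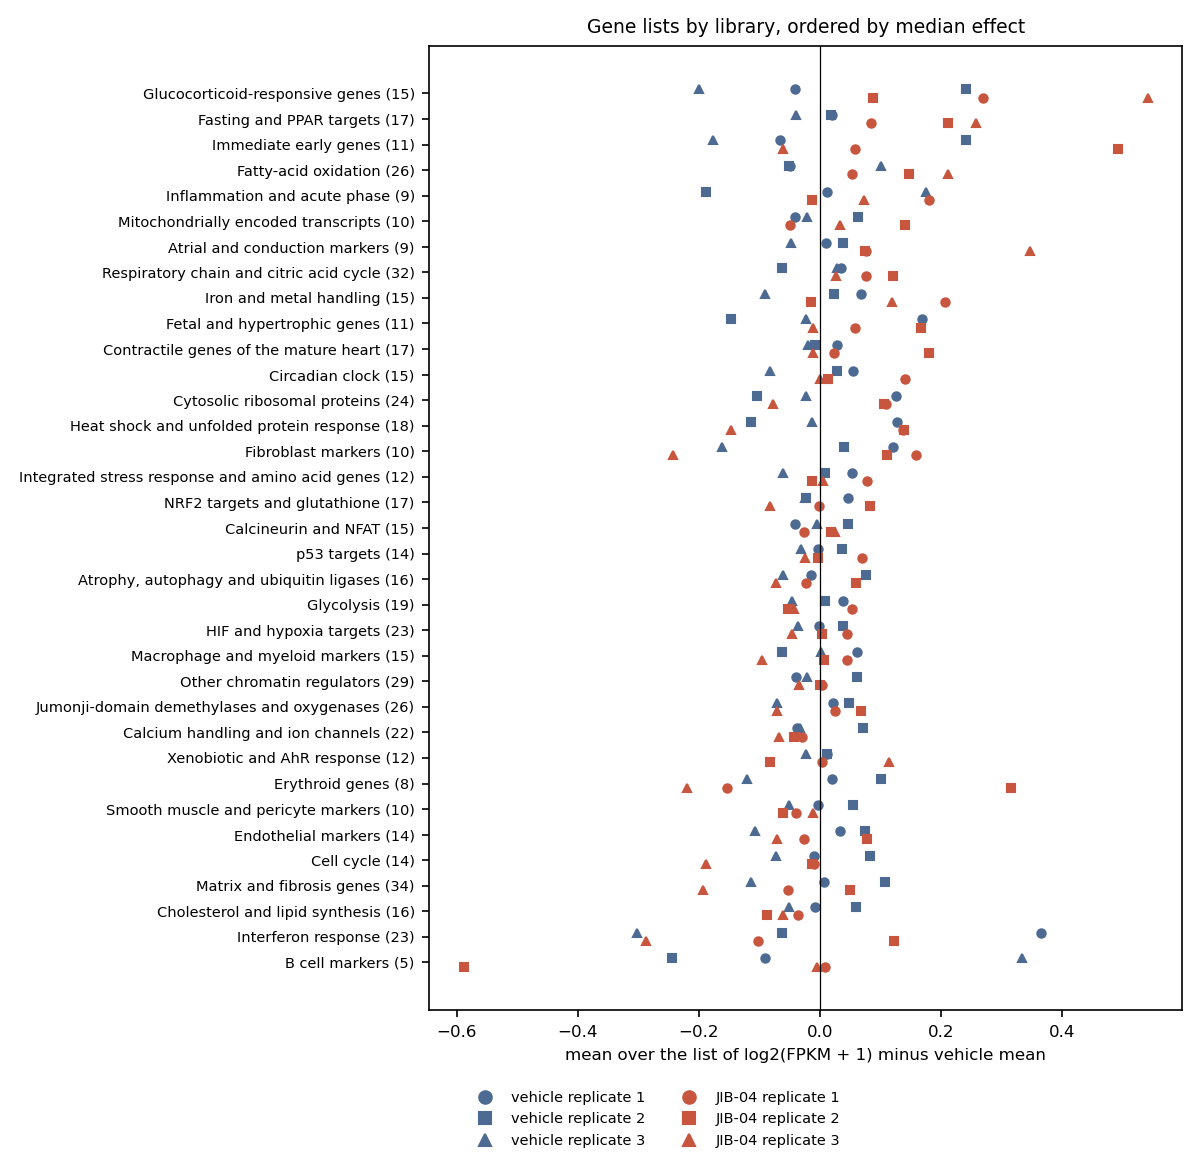
Mean over each gene list of log2(FPKM + 1) minus the vehicle mean, in each of the 3 vehicle (blue) and 3 JIB-04 (red) WT libraries. Shown are 35 lists with at least 5 genes tested (number in brackets), with the list of sex-linked genes left out. They are ordered by the median difference as deposited, and several medians change sign under another scaling. Glucocorticoid-responsive and fasting genes are at the top, and JIB-04 replicate 2 is the highest library for immediate early genes (0.49).

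Glucocorticoid-responsive genes, which respond to the stress hormone corticosterone, had the highest median of all lists with at least 5 genes tested. All 15 were higher, with a median of 0.18, and 0 passed the test. Library means were -0.041, 0.24 and -0.20 with vehicle and 0.27, 0.088 and 0.54 with JIB-04, so JIB-04 replicate 2 lay inside the vehicle range. Without it the median was 0.36. In CnATg hearts 9 of 15 were higher, with a median of 0.081. Fkbp5, a chaperone induced by the hormone's receptor, was at 8.25, 4.42 and 3.04 FPKM with vehicle and at 12.8, 3.48 and 10.1 FPKM with JIB-04, a difference of 0.59 (95% interval -0.52 to 1.70). Zbtb16, a transcription factor with the same response, was at 22.1, 13.1 and 5.79 FPKM with vehicle and at 35.0, 16.2 and 11.6 FPKM with JIB-04, a difference of 0.60 (95% interval -0.46 to 1.67). The groups overlapped in both genes, and the vehicle libraries alone spanned a wide range. The vehicle order (replicate 1 highest, replicate 3 lowest) was the same in both.

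The metallothioneins Mt1 and Mt2, small proteins that bind zinc and copper, belong to the same list and to the metal list. Mt2 was at 24.96, 36.9 and 18.9 FPKM with vehicle and at 46.9, 36.2 and 70.8 FPKM with JIB-04, a difference of 0.90 (95% interval 0.21 to 1.59). It came to 1.12 without JIB-04 replicate 2, the library that lay within the vehicle range. Mt1 was at 245, 228 and 208 FPKM with vehicle and at 315, 234 and 308 FPKM with JIB-04, a difference of 0.32 (95% interval 0.0085 to 0.63). The adjusted p of both was 0.999 in limma. In CnATg hearts Mt2 differed by 0.63 (95% interval -0.058 to 1.33) and Mt1 by 0.28 (95% interval -0.032 to 0.59).

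The genes lie next to each other on chromosome 8, and the promoters are shown because both are induced by metals through the factor Mtf1, whose response element has the core TGCACNC or TGCGCNC. The sequences are the 250 bases before each RefSeq gene start on GRCm38.p6, plus strand, chr8:94172368-94172617 for Mt2 and chr8:94178839-94179088 for Mt1. Capitals mark matches to either core on both strands.
Mt2: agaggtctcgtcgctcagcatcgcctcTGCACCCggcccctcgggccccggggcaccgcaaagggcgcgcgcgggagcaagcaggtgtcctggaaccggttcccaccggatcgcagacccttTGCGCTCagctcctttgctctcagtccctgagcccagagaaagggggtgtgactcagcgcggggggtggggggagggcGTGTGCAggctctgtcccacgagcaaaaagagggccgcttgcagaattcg
Mt1: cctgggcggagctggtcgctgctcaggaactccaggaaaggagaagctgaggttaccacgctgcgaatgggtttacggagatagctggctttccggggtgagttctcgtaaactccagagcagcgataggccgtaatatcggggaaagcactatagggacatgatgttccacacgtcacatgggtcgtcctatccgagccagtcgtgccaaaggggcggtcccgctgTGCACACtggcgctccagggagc

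Within these 250 bases Mt2 had 3 matches and Mt1 had 1, which lay 23 to 17 bases before the start used. Bases after each start were not searched, so these are not counts of all sites of either gene. Of 32851 promoters of the same length 21.4% had at least 1 match and 1.26% had at least 3. A match of letters is not evidence that a factor binds there.

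The iron and metal list, which includes both, had 9 of 15 higher and a median of 0.060, and 0.16 without JIB-04 replicate 2. Trf, the iron carrier transferrin, was at 17.5, 14.9 and 20.0 FPKM with vehicle and at 13.6, 13.2 and 13.5 FPKM with JIB-04, a difference of -0.35 (95% interval -0.63 to -0.074). Its JIB-04 libraries were level and all below the vehicle libraries. Slc11a2, the divalent metal importer, differed by 0.23 (95% interval -0.014 to 0.47), and Slc40a1, the iron exporter ferroportin, by 0.34 (95% interval -0.0088 to 0.69). Immediate early genes had 11 of 11 higher and a median of 0.14, which came to 0.0086 with 5 of 10 higher without JIB-04 replicate 2. Fos, the best known of them, was at 2.75 FPKM in that library and at 0.664 to 1.34 FPKM in the other 5.

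No matrix gene or marker of other heart cells passed the test. Of 34 matrix and fibrosis genes tested 8 were higher and 26 lower, with a median of -0.068, which came to -0.0017 without JIB-04 replicate 3 and to -0.10 without JIB-04 replicate 2. In CnATg hearts 2 of 34 were higher, with a median of -0.15. Col1a1, the main fibrillar collagen chain, was at 19.3, 20.9 and 17.2 FPKM with vehicle and at 20.5, 21.1 and 16.1 FPKM with JIB-04, a difference of 0.0010 (95% interval -0.31 to 0.31). Col3a1 differed by -0.068 (95% interval -0.46 to 0.33). Col15a1, a basement membrane collagen, had no overlap: it was at 36.2, 40.2 and 32.9 FPKM with vehicle and at 32.7, 31.3 and 25.4 FPKM with JIB-04, a difference of -0.28 (95% interval -0.56 to -0.0098). Ctgf, a matrix protein induced by growth factors, differed by 0.27 and Tgfb2, a growth factor of scarring, by -0.24, and the intervals of both included zero.

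Medians of the cell-marker lists were 0.025 for fibroblasts, -0.040 for endothelium, -0.038 for smooth muscle and pericytes, -0.0060 for macrophages and -0.034 for red cells. All 5 took both signs when each of the 6 libraries was left out in turn. The ranges were -0.057 to 0.14 for fibroblasts, -0.081 to 0.012 for endothelium and -0.23 to 0.11 for red cells. They were -0.044 to 0.0023 for smooth muscle and pericytes and -0.041 to 0.027 for macrophages. The B cell list had 0 of 5 higher and a median of -0.17, which came to -0.027 without JIB-04 replicate 2. Both T and NK cell markers tested were lower, with a median of -0.070. Atrial and conduction markers had 8 of 9 higher and a median of 0.067. Myl4, an atrial light chain, was at 18.2 FPKM in JIB-04 replicate 3 and at 1.97 to 2.61 FPKM in the other 5, and its difference of 0.67 became -0.21 without that library. Fewer cells of a type and less RNA per cell cannot be told apart in whole hearts. Interferon genes had 5 of 23 higher and a median of -0.091. Their library means were 0.36, -0.062 and -0.30 in the vehicle group alone, and without vehicle replicate 1 the median was 0.10. Rsad2, an antiviral enzyme of this list, differed by -0.29 (95% interval -0.56 to -0.024) with overlap between the groups.

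Stress and growth programmes gave medians between -0.087 and 0.035. Heat shock and unfolded protein genes had 12 of 18 higher (median 0.035, and -0.023 without JIB-04 replicate 2). Targets of NRF2 had 9 of 17 higher (median 0.020, with -0.055 under quantile normalization and -0.0057 without short noncoding RNA genes). The p53 targets had 8 of 14 higher (median 0.0067, with -0.011 under quantile normalization and -0.019 without short noncoding RNA genes). Cholesterol and lipid synthesis genes had 4 of 16 higher (median -0.087), and cell cycle genes had 4 of 14 higher (median -0.064). The cell cycle median came to -0.16 without JIB-04 replicate 2 and to 0.0032 without JIB-04 replicate 3. Ccnd1, the cyclin of the first growth phase, was at 21.5, 25.4 and 25.9 FPKM with vehicle and at 20.3, 18.8 and 21.1 FPKM with JIB-04, a difference of -0.26 (95% interval -0.49 to -0.029). Psat1, an enzyme of serine synthesis that responds to amino acid stress, was at 1.08, 1.14 and 1.25 FPKM with vehicle and at 2.05, 1.58 and 1.90 FPKM with JIB-04, a difference of 0.40 (95% interval 0.085 to 0.71). Both genes were without overlap, and the adjusted p of each was 0.999.

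The effect in WT hearts was then set against that in CnATg hearts, which share no library with it. Sex was not balanced between the CnATg groups, so the CnATg effect may hold a sex difference. The difference between the 2 effects passed the test in 0 genes (0%), with a smallest adjusted p of 0.966 in limma, and 464 genes (3.67%) had an unadjusted p under 0.05. With sex as covariate it also passed in 0 genes. Between JIB-04 and vehicle in CnATg hearts, 0 of the same 12630 genes (0%) had an adjusted p under 0.05 in limma. These genes were kept by their level in the WT libraries alone. The interval of the difference between the 2 effects reached a median of 0.31 to either side, wider than the 0.22 of the WT effect. Across the 12630 genes the effects correlated with Pearson's r = 0.143 and Spearman's rho = 0.048, and r was 0.036 without WT JIB-04 replicate 2. These are descriptions across genes, which are not independent replicates.

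Mtg1 had a difference of 0.35 in WT and -0.14 in CnATg hearts, and the difference between them was 0.49 (95% interval 0.26 to 0.72). For Nmrk2, a kinase of NAD synthesis that is induced in stressed heart muscle, the WT value was 0.059 and the CnATg value -0.57, a difference of 0.63 (95% interval 0.22 to 1.04). Srxn1, an antioxidant enzyme, was at -0.24 in WT and 0.35 in CnATg hearts, a difference of -0.59 (95% interval -0.97 to -0.20). The adjusted p of all 3 was 0.998. Aplnr (-0.51 and -0.47), Col15a1 (-0.28 and -0.30) and Mt2 (0.90 and 0.63) are given as the WT and the CnATg difference, and the intervals between them included zero.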

How the data were processed

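RNA sequencing of mouse hearts gave 23 libraries, of which the 12 from day 45 were used (4 groups of 3). Per the labels' protocols, RNA came from a Trizol extraction and went into a kit for mRNA that is not directional, so overlapping and antisense genes cannot be separated. Per the submitters' processing notes, Cufflinks 2.2.1, GATK 4.1.2, Picard and STAR 2.7.1a were run with GRCm38; annotation and filters are not given in the sources used here. The authors deposited log2 FPKM for 43154 features per library, per the file headers. Values were never negative and included exact zeros, so they were read as log2(FPKM + 1) and used as deposited. Read counts are unknown. Relative depth came from the most common ratio of a library to WT vehicle replicate 1. It was taken over features above 0 and under 0.1 FPKM in both, with a locus of 900 to 4000 bases. The spread of replicate libraries sets the precision.

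Group means were compared in limma 3.58.1 (R 4.3.3; empirical Bayes with a level trend, two-sided, Benjamini-Hochberg over 12630 genes), with a call at an adjusted p under 0.05. All 12 libraries shared 1 estimate of the spread. The model was tested on simulated data. Named genes were those past the threshold, then up to 12 each way by size among genes with no overlap between groups, an unadjusted p under 0.01 and a mean FPKM of at least 2, without gene models, pseudogenes, Xist or Y-linked genes, and members of 40 lists; list members shown in full were picked after their values were seen. The genes and lists were chosen with earlier results of these data known. Gene types came from GENCODE M21 and promoters from RefSeq (GRCm38.p6). Alternatives covered pseudocount, filter, scaling, sex, library weights, each library left out and the replicate block. A few genes are not reported here.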

Additional observations from a re-analysis of the deposited data

Results flagged for a closer look

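The 3 mitochondrial transcripts left out of the comparison had values in a single WT library at day 45. In JIB-04 replicate 2, mt-Atp6 was at 45670 FPKM, mt-Atp8 at 53787 FPKM and mt-Co3 at 58737 FPKM, whereas all 3 were listed at 0 in the 3 vehicle libraries and in JIB-04 replicates 1 and 3. They stand above the controls in data that no comparison uses. A listed 0 for transcripts that every heart cell makes can be a failed estimate, and what separates this library from the other 5 was not tested. The same library held 15.3% of its summed FPKM in short noncoding RNA.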

How the results depend on the processing

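The count of 0 genes called in WT hearts held at pseudocounts of 0.1 and 0.5 and at an FPKM minimum of 5 (8342 genes). It also held under median-ratio scaling, without mitochondrial and hemoglobin genes, with sex as covariate, with library weights and with the 6 WT libraries alone. The smallest adjusted p in limma was 0.0507 with the 6 WT libraries alone and 0.0747 at a pseudocount of 0.1, against 0.755 in the main fit. In the other settings just listed it was 0.527 to 0.993. Without a filter on low values, 2 of 24445 features were called, Gm16304 and Zfp36l1-ps, both listed at 0 with vehicle and at about 0.1 FPKM with JIB-04; the interaction with genotype then called 1. Quantile normalization called 1, Gm26672 (-0.87, adjusted p 0.030 in limma). Leaving out each library gave 0 to 1 calls for both comparisons, the 1 being Atf7ip without vehicle replicate 2. Leaving out short noncoding RNA genes, and each CnATg library in turn, were chosen after seeing the data and gave 0 calls. With the replicate block there were 0 calls and 727 genes at an unadjusted p under 0.05, against 555. Same-numbered WT libraries deviated together at r = 0.220, 0.048 and 0.226, each best with its own number. In both WT groups replicates 1 and 2 were female and replicate 3 male by Xist and Ddx3y, so the number partly follows sex. Same-numbered CnATg libraries were at r = -0.015, -0.048 and 0.184, and there replicate 2 was female with vehicle and male with JIB-04. The numbers were not taken as pairs, and whether they mark pairs in WT is not known.

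Over 71 genes and 18 alternatives, 33 of 1249 differences changed sign and 57 genes kept theirs throughout; the causes were not tested. Median-ratio scaling gave Col1a1 -0.00080. Quantile normalization gave Myh6 -0.050, Fabp3 -0.080, Ndufb8 -0.0037, Cox8b -0.0036 and Col1a1 -0.013. Without mitochondrial and hemoglobin genes, where the median of all genes was -0.11, Myh6 was -0.082, Nmrk2 -0.035, Kdm4a -0.12, Kdm6b -0.036, Ndufb8 -0.017 and Col1a1 -0.13. Library weights gave Nppb -0.0067, and leaving out short noncoding RNA gave Kdm4a -0.020 and Col1a1 -0.023. With each library left out, Ankrd1 ran from -0.26 to 0.13, Atf7ip from -1.72 to -0.94, Nppb from -0.33 to 0.56, Nmrk2 from -0.032 to 0.17, Kdm4a from -0.052 to 0.043, Kdm5a from -0.078 to 0.0053, Col1a1 from -0.069 to 0.12, Col3a1 from -0.18 to 0.034, Rcan1 from -0.042 to 0.0073 and Myl4 from -0.21 to 1.13. Of 717 list medians 95 changed sign. Depth is unknown in absolute terms and limits mainly genes of low level.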

Other observations

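Atf7ip had 2 levels in the series. It was at 39.5 and 42.9 FPKM in WT vehicle replicates 1 and 3 at day 45 and at 36.3 FPKM in CnATg vehicle replicate 2 at day 77. The other 20 libraries lay between 10.4 and 13.9 FPKM, in both genotypes, treatments and ages.

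Several genes outside the naming rule were picked after their values were seen. E2f3, a transcription factor of the cell cycle, had a difference of -1.58 between the groups (95% interval -2.77 to -0.40), its libraries did not overlap, and it came to -0.90 without JIB-04 replicate 2. Phactr1, a regulator of actin and protein phosphatase, had a difference of -1.15 that came to 0.094 without vehicle replicate 2. Cdk8, a kinase of the Mediator complex, was at 98.7 FPKM in JIB-04 replicate 2, and its difference of 1.24 came to 0.16 without that library. Lars2, a mitochondrial leucyl-tRNA synthetase, was at 1068 FPKM in the same library, and its difference of 1.63 came to 0.50.

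Gm26672, a gene model, was at 1.34, 1.46 and 1.45 FPKM in the WT vehicle libraries and at 0.587, 0.525 and 0.601 FPKM in the WT JIB-04 libraries at day 45. It was at 0.838 to 0.869 FPKM in the WT JIB-04 libraries at day 77 and at 0.418 to 1.27 FPKM in CnATg vehicle libraries of that age. At day 45 it was at 0.630 to 0.660 FPKM in CnATg vehicle and at 0.571 to 0.937 FPKM in CnATg JIB-04 libraries. CnATg vehicle replicate 1 at day 45 had Myl7 at 82.7 FPKM and Sln at 36.2 FPKM, above JIB-04 replicate 3 of the WT group.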
